A study of Caenorhabditis elegans with 2 samples.

Results

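The genes described here encode heat shock proteins and DnaJ proteins of Caenorhabditis elegans, together with hsf-1. They were taken as all protein-coding genes of the Ensembl WBcel235 annotation whose name begins with hsp- or dnj-, plus hsf-1, without hsp-3, hsp-4, hsp-6 and hsp-60. This gave 48 of the 19973 protein-coding genes on the nuclear chromosomes. The name rule is wider than the cytosol: dnj-29 (a Sec63-type protein of the endoplasmic reticulum), dnj-7, dnj-20 and dnj-27 (also of the endoplasmic reticulum) and hsp-75, dnj-10 and dnj-21 (mitochondrial) are members as well. The 48 comprised 11 constitutive Hsp genes, 7 heat-inducible genes, 29 DnaJ genes and hsf-1. Heat-inducible stands for every hsp-16 gene and hsp-70, and constitutive Hsp for every other hsp- member. These classes come from textbook knowledge and not from expression measured in these worms.

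Chaperones of the Hsp70 family bind unfolded protein in cycles of ATP hydrolysis, DnaJ (Hsp40) proteins deliver the substrate and start the hydrolysis, and Hsp110 proteins release the nucleotide. In worms, hsp-1 (Hsc70), hsp-90 and hsp-110 are expressed without stress, whereas the small heat shock genes of the hsp-16 family and hsp-70 are nearly silent until heat activates the transcription factor HSF-1. HSF-1 binds heat shock elements, which are inverted repeats of GAA.

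The study mapped where the zinc finger protein SPR-3 binds the genome, a repressor first found through mutations that suppress presenilin defects, by chromatin immunoprecipitation and sequencing (ChIP-seq) with an anti-GFP antibody. Whole L4 larvae of both sexes, collected at 49 hours after L1 starvation, came from strain OP703, which carries unc-119(tm4063) and the transgene wgIs703, made of spr-3 fused to TY1, EGFP and 3xFLAG together with unc-119(+). There were 2 biological replicates of 1 group, no heat shock and no second condition, so no test between conditions was possible, and all values come from unstressed transgenic worms. The sources used here do not state which promoter drives the tagged copy or whether the endogenous spr-3 gene was intact.

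The authors' peak caller listed 30000 candidate intervals for each replicate and for the pool, and the reproducible (IDR-thresholded) set held 945 peaks, here called thresholded peaks. Each has a signal, the caller's value for ChIP against control. The lowest signal in the thresholded set was 138. Each gene was scored by the highest signal of a summit between 1000 bp upstream and 200 bp downstream of the annotated 5′ end of its gene record, the promoter window. The depth of the libraries is unknown, and signals were read within a list and not between lists.

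SPR-3 peaks stood at the promoters of hsp-1 and hsp-110 and of 5 DnaJ genes. No thresholded peak stood at a heat-inducible gene (0 of 7), which is near the share of all genes, 2.83%. A thresholded peak lay in the window of 7 of 48 members (14.6%, exact 95% interval 6.07 to 27.8%), against 566 of all 19973 genes (2.83%). The 7 were dnj-13, dnj-9, dnj-19, hsp-1, hsp-110, dnj-29 and dnj-28. A pooled candidate of any rank was present at 31 of 48 members (64.6%), against 32.7% of all genes. In the replicates a candidate stood at 27 members in replicate 1 (56.2%, against 31.9% of all genes), at 29 in replicate 2 (60.4%, against 33.2%) and at 23 in both (47.9%, against 20.1%). A candidate in both means anywhere in the window and need not be the same site. At dnj-3, for instance, the highest summit lay 330 bp upstream in replicate 1 and 877 bp upstream in replicate 2. No list held a candidate at 14 members (29.2%, against 53.5%). Among genes with such a candidate the median pooled signal was 65.3 for the members and 64.8 for all genes, so the typical member with a candidate had a signal near the background and the peaks were a minority at the upper end. Intervals on shares cover counting error among genes only, and genes are not replicates of the worms.

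**Figure D1:**
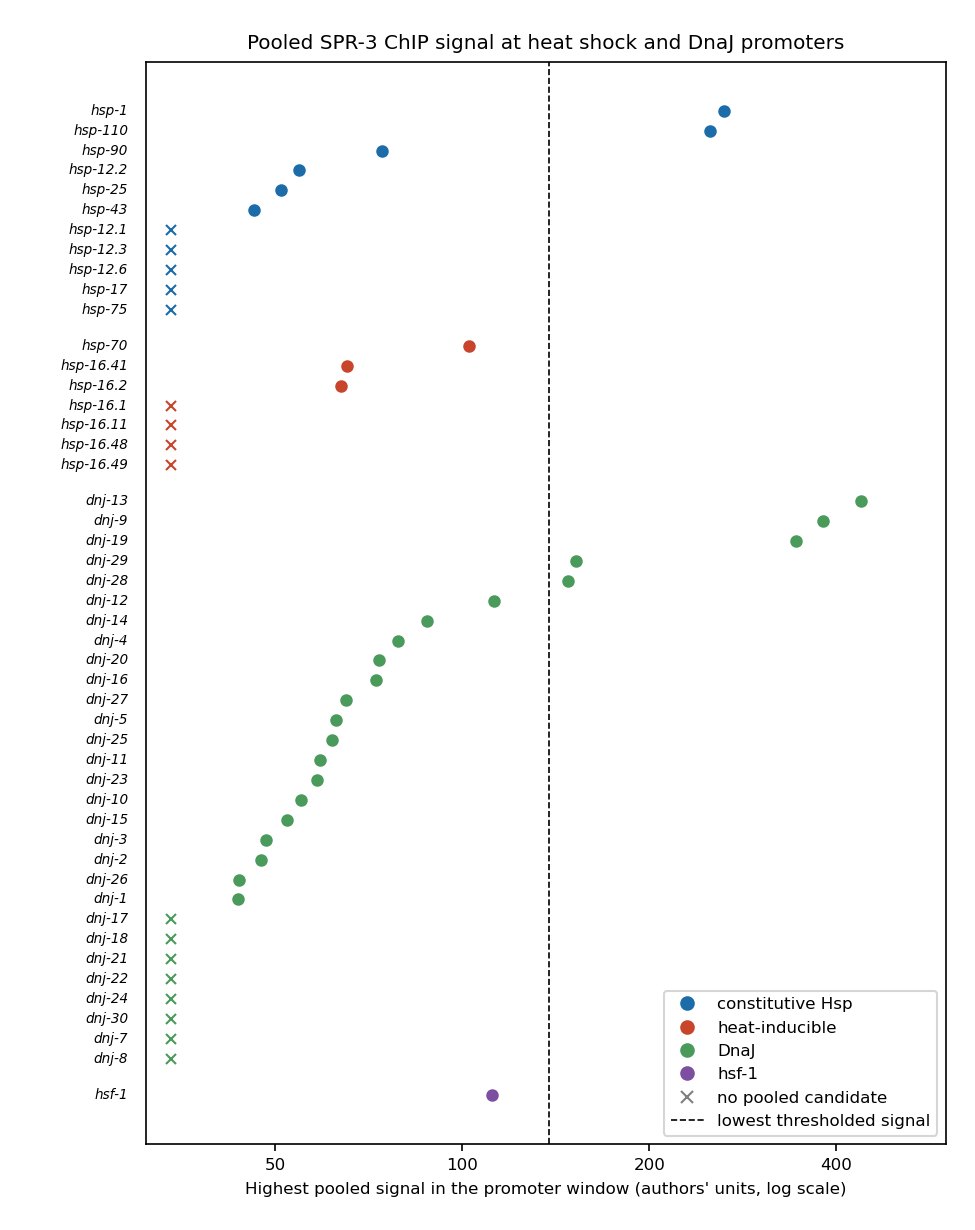
Highest pooled SPR-3 ChIP signal in the promoter window of each of the 48 members (log axis, the authors' units), grouped by class, with crosses for members with no pooled candidate and a dashed line at the lowest thresholded signal. To the right of the line are 7 members, namely hsp-1, hsp-110 and 5 DnaJ genes, and all 7 heat-inducible genes lie to its left or have no candidate.

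The sequences around the 5 strongest of these summits, and around a summit in hsp-90 described further on, are shown because the strongest signals at these genes lie in them. Each is 121 bases centred on the summit, on the strand of the gene, read from the WBcel235 genome of RefSeq. They lie at chrII:11545416-11545536 (dnj-13, + strand), chrII:4851774-4851894 (dnj-9, + strand), chrV:5505175-5505295 (dnj-19, − strand), chrIV:17278550-17278670 (hsp-1, + strand), chrIII:8447058-8447178 (hsp-110, − strand) and chrV:14685716-14685836 (hsp-90, + strand). Capitals mark GAANNTTC, the core of a heat shock element, and, on either strand, GACGC and GCGCCAGC, words that an earlier reading of these data found at SPR-3 summits.
dnj-13: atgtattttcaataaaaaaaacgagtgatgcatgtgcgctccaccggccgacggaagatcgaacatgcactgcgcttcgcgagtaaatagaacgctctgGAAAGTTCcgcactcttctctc
dnj-9: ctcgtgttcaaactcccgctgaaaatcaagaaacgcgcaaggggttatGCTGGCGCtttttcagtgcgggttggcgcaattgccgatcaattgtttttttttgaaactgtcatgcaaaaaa
dnj-19: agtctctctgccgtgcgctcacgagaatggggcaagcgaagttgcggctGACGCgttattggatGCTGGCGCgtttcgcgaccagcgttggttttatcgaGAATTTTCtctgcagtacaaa
hsp-1: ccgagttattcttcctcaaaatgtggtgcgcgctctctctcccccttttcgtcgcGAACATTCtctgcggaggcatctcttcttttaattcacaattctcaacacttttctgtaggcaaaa
hsp-110: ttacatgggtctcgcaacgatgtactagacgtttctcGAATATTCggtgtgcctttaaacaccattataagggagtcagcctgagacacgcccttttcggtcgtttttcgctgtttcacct
hsp-90: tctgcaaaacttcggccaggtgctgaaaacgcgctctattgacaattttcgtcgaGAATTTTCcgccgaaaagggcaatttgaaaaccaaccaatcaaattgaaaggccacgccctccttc

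Within the promoter window, the constitutive genes with a thresholded peak both belong to the Hsp70 system. The peak of hsp-1, the cytosolic Hsc70 gene, spanned chrIV:17278395-17278824 with its summit 349 bp upstream of the 5′ end. Its signal was 137.5 in replicate 1 (rank 191 of 30000), 126.7 in replicate 2 (rank 225) and 264.1 in the pool (rank 192). A second and much weaker pooled candidate of hsp-1 stood 122 bp upstream (47.6, rank 25368). The peak of hsp-110, the nucleotide exchange factor of Hsp70, lay 209 bp upstream at chrIII:8446903-8447332. Its signal was 121.1 in replicate 1 (rank 256), 127.9 in replicate 2 (rank 217) and 250.3 in the pool (rank 221). For both genes the replicates ranked the site alike, and the summits of the replicates lay within 8 bp of the pooled summit.

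The gene hsp-90, which encodes the cytosolic Hsp90 chaperone, had no thresholded peak by the window rule, because its peak lay inside the gene record. Within the window the highest pooled candidate was weak (74.4, rank 7779), with 33.7 in replicate 1 and 34.8 in replicate 2. A thresholded peak stood at chrV:14685687-14685817, 858 bp downstream of the 5′ end of the record and 384 bp upstream of the more downstream of its 2 annotated transcript starts. Its signal was 148.3 in replicate 1 (rank 158), 148.2 in replicate 2 (rank 153) and 291.2 in the pool (rank 144), above that of hsp-1 and hsp-110 in each list. That summit also lay in the window of the neighbour C47E8.4. When the 5′ end of every annotated transcript was used, 8 of 48 members had a thresholded peak, against 616 of all genes (3.08%), and 3 of the 11 constitutive Hsp genes were among the 8.

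The small heat shock genes with constitutive or developmental expression and hsp-75 had no thresholded promoter peak. Weak pooled candidates stood at hsp-12.2 (54.6), hsp-25 (51.1) and hsp-43 (46.2), each below the median of all genes with a candidate. The replicates differed here. Replicate 1 listed hsp-12.2 at 52.9 (rank 3231) and replicate 2 did not, whereas hsp-25 and hsp-43 had candidates in replicate 2 alone. No pooled candidate lay in the windows of hsp-12.1, hsp-12.3, hsp-12.6, hsp-17 and hsp-75. Of these, only hsp-12.1 had a candidate in a replicate (27.6 in replicate 2). The 11 constitutive Hsp genes thus fell into hsp-1 and hsp-110 with clear peaks and 9 with weak or no candidates in the window, among them hsp-90 with its peak inside the record.

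The DnaJ genes held the strongest sites, with a thresholded peak at 5 of 29 (17.2%, 5.85 to 35.8%). The highest was dnj-13, a class B (DNAJB1-type) partner of Hsc70, at chrII:11545261-11545690, 225 bp upstream. Its signal was 236.2 in replicate 1 (rank 55), 190.0 in replicate 2 (rank 75) and 438.2 in the pool (rank 56). The start of dnj-13 lies inside the longer gene dhgd-1, which is on the other strand. The peak of dnj-9 followed, at chrII:4851726-4851917 and 222 bp upstream, with 208.6 in replicate 1, 171.1 in replicate 2 and 380.4 in the pool (rank 77). The third was dnj-19, a class A (DNAJA-type) partner of Hsc70, at chrV:5505180-5505312 and 378 bp upstream, with 187.5 in replicate 1, 162.5 in replicate 2 and 344.5 in the pool (rank 99). The gap from dnj-19 to its neighbour nhr-47, on the other strand, is 395 bp, so the summit lay nearer to the 5′ end of nhr-47. All 3 ranked within the top 120 candidates of each replicate, and the pooled signals of dnj-13, dnj-9 and dnj-19 stood at the 99.3, 99.1 and 98.8 percentiles of all genes with a candidate.

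The other DnaJ peaks were weaker and less even between replicates. The peak of dnj-29, the Sec63-type gene, lay 277 bp upstream with 104.2 in replicate 1 (rank 383), 60.3 in replicate 2 (rank 2067) and 152.6 in the pool (rank 738). Its candidate in replicate 2 had a summit 80 bp from the pooled one. The peak of dnj-28 lay 99 bp upstream with 58.8 in replicate 1 (rank 2128), 90.9 in replicate 2 (rank 570) and 148.2 in the pool (rank 794). Each of these peaks was thus high in 1 replicate and outside the 945 highest candidates of the other. Among the 945 highest candidates were 6 members in replicate 1 (12.5%, against 2.61% of all genes) and 6 in replicate 2 (12.5%, against 2.67%). Those in both replicates were dnj-13, dnj-9, dnj-19, hsp-1 and hsp-110, 5 members (10.4%, against 1.93%).

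**Figure D2:**
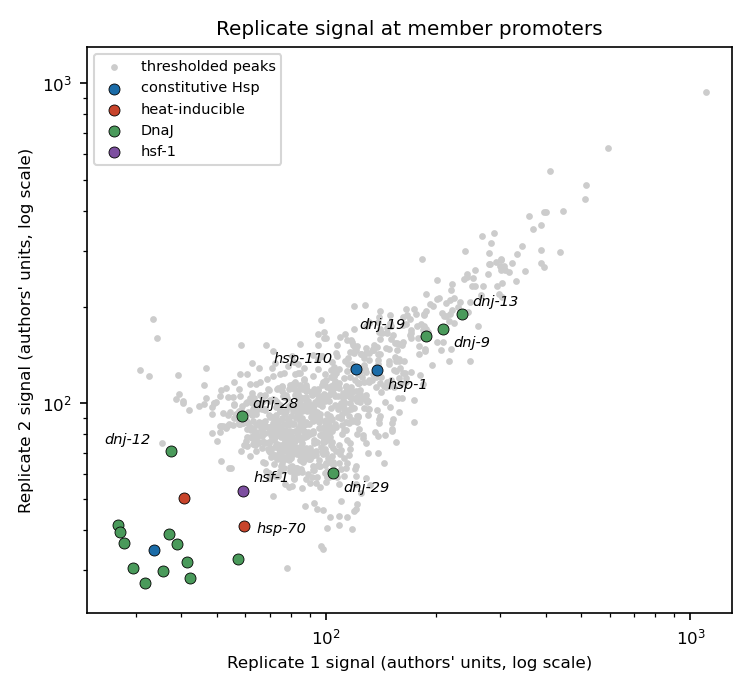
Signal in replicate 1 against signal in replicate 2 (both axes log, the authors' units) for the members with a candidate in both replicate windows (coloured by class) and for the thresholded peaks matched in both replicates (grey). A member is drawn at the highest signal in its window in each replicate, which need not be the same site. The points of dnj-13, dnj-9, dnj-19, hsp-1 and hsp-110 lie with the high peaks of both replicates. By rank within each list, dnj-28 stood higher in replicate 2 (570, against 2128 in replicate 1) and dnj-29 in replicate 1 (383, against 2067 in replicate 2).

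The next member below the threshold was dnj-12, a class A partner of Hsc70, with a pooled signal of 112.6 (rank 1744) and a summit 26 bp upstream. Its ranks in the replicates differed, with 37.4 in replicate 1 (rank 11209) and 71.1 in replicate 2 (rank 1172). The next was hsf-1, the gene of the heat shock factor itself, with 59.1 in replicate 1 (rank 2091), 53.2 in replicate 2 (rank 3251) and 111.7 in the pool (rank 1808), 127 bp upstream. Then came hsp-70 (102.5), dnj-14, the cysteine string protein gene (87.8, rank 4315), and dnj-4 (78.8, rank 6359). The lowest members above the threshold were dnj-28 (148.2), dnj-29 (152.6) and, well above it, hsp-110 (250.3, rank 221). No member had a value in its window between 112.6 and 148.2. A looser set of the 1890 highest pooled candidates took in dnj-12 and hsf-1 and so 9 members (18.8%, against 4.47% of all genes).

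The remaining DnaJ genes had low candidates or none. The pooled signals of dnj-20 (ERdj3-type) and dnj-27 (ERdj5-type) were 73.5 and 64.9, those of dnj-25, the auxilin gene, and dnj-10, the mitochondrial Tid1-type gene, were 61.6 and 55.0, and that of dnj-11, which encodes a ribosome-associated DnaJ protein of the ZRF1 type, was 59.1. Pooled candidates also stood at dnj-16 (72.5), dnj-5 (62.7), dnj-23 (58.3), dnj-15 (52.2), dnj-3 (48.3), dnj-2 (47.5), dnj-26 (43.7) and dnj-1 (43.5). No list held a candidate in the windows of dnj-7, dnj-8, dnj-17, dnj-18, dnj-21 and dnj-30, and dnj-22 and dnj-24 had candidates in replicate 1 alone (27.9 and 36.4).

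The heat-inducible genes had no thresholded peak, 0 of 7 (exact 95% upper bound 41%), beside 2 of 11 constitutive Hsp genes (18.2%, 2.28 to 51.8%). The share over all genes was 2.83%, so 0 of 7 is near the background. The intervals of the 2 classes overlap, and with so few genes a difference between the classes was not detectable. A pooled candidate of any rank stood at 3 of 7 heat-inducible genes (42.9%) and 6 of 11 constitutive Hsp genes (54.5%), against 32.7% of all genes. No list held a candidate at 4 of 7 (57.1%) and 4 of 11 (36.4%), against 53.5% of all genes. The highest heat-inducible value was that of hsp-70, an Hsp70 gene induced by heat, with 59.3 in replicate 1 (rank 2065), 41.2 in replicate 2 (rank 8116) and 102.5 in the pool (rank 2410), 192 bp upstream. The small heat shock genes hsp-16.2 and hsp-16.41 face away from each other and share 1 short promoter. The best pooled candidate of hsp-16.2 had a signal of 63.7 at 260 bp upstream, and that of hsp-16.41 had 65.3 at 970 bp upstream. The 63.7 candidate also lay in the window of hsp-16.41, 39 bp downstream of its 5′ end, so it is 1 site for both genes. In replicate 2 a single candidate (50.4, rank 3936) stood in both windows, 263 bp upstream of hsp-16.2 and 42 bp downstream of the 5′ end of hsp-16.41. In replicate 1 no candidate lay in the window of hsp-16.2, and the highest at hsp-16.41 was 40.7, at another position 630 bp upstream.

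The other heat-inducible genes lie in duplicated sequence. Ensembl gives the names hsp-16.1 and hsp-16.48 to 2 gene records each, which form an inverted repeat on chromosome V, and RefSeq calls the second copies hsp-16.11 and hsp-16.49. The windows of hsp-16.48 and hsp-16.49 were 100% identical and those of hsp-16.1 and hsp-16.11 96% identical. Between 93.1 and 100% of the 50-base words in these 4 windows occurred elsewhere in the genome as well. None of the 4 windows held a candidate in any list. The same was true of all 246 protein-coding genes whose windows were over 90% duplicated (0 with a candidate), against 47.5% with a candidate in at least 1 list among the 19475 genes with at most 50% duplicated windows. The 3 heat-inducible genes outside the repeat, hsp-70, hsp-16.2 and hsp-16.41, had no duplicated words in their windows, and the count without the 4 repeated genes was 0 of 3. Whether the repeat kept candidates out of these lists was not tested.

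**Figure D3:**
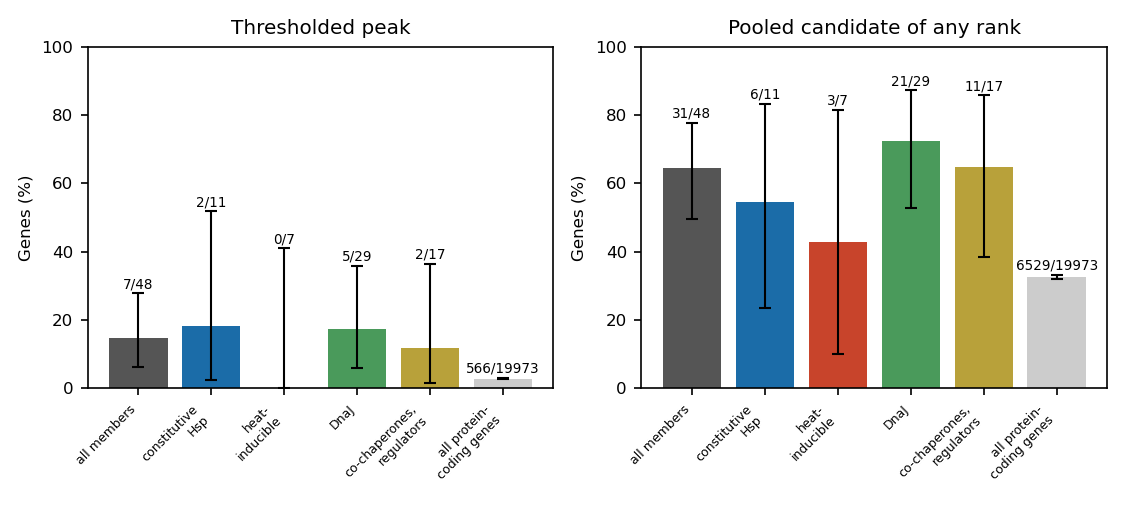
Share of genes in each class with a thresholded peak (left) or a pooled candidate of any rank (right) in the promoter window, with exact 95% binomial intervals and the counts above the bars. For thresholded peaks the bars read 14.6% for all members, 18.2% for constitutive Hsp, 0% for heat-inducible, 17.2% for DnaJ and 11.8% for co-chaperone genes, against 2.83% for all protein-coding genes.

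All 7 member summits lay upstream of the annotated 5′ end, between 99 and 378 bp away with a median of 225 bp. Among all 566 genes with a thresholded peak, 523 had the summit upstream. None of the 7 lay within 200 bp of a tRNA, snRNA or snoRNA gene, and without the peaks that did, 489 of the 566 genes kept one, so 0 of 7 is near the background. At 5 of the 7 genes the next gene upstream is on the opposite strand, and for these 5 (71.4%, against 47.3% of all genes with a peak) the same summit also fell in the window of another gene. The partners were F54D5.9 at dnj-13, the nuclear receptor gene nhr-47 at dnj-19, the proteasome subunit gene rpn-3 at hsp-110, supr-1 at dnj-28, and ndua-2, which encodes a subunit of respiratory complex I, with fld-1 at dnj-29. Of the 7, hsp-1 and dnj-9 shared their summit with no other gene's window. The 47.3% for all genes is a stricter count, because there the summit also had to be the highest thresholded one in the other gene's window. It may therefore be too low beside 71.4%. No share over all genes was taken for a neighbour on the opposite strand. When each peak was given to the nearest 5′ end alone, 5 members remained, without dnj-19 and dnj-29, and 3 of the 29 DnaJ genes. The count over all genes was then 415 (2.08%).

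**Figure D4:**
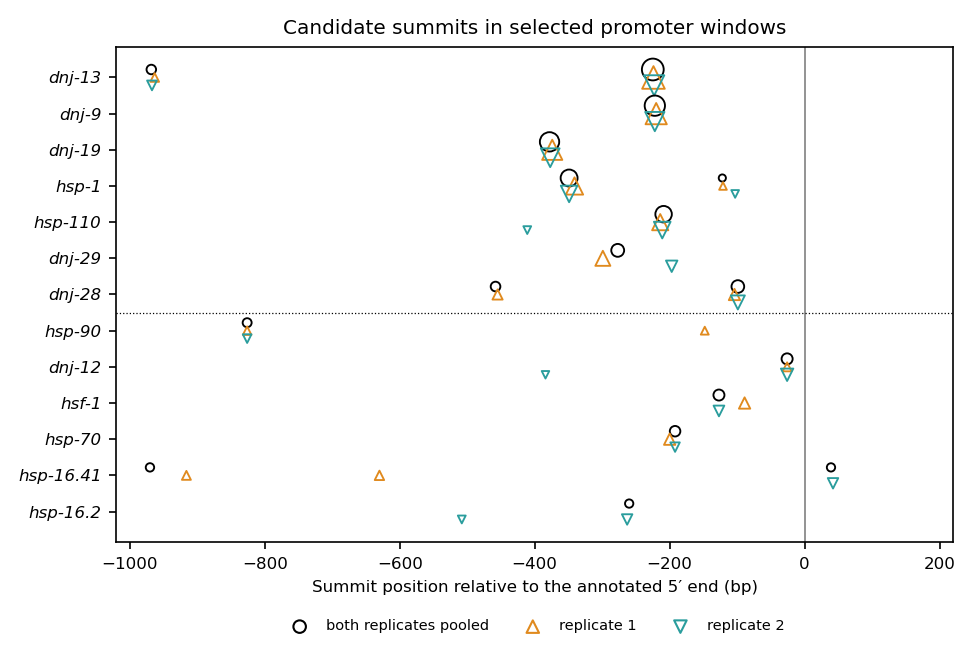
Position of candidate summits relative to the annotated 5′ end (bp) in the windows of the 7 members with a thresholded peak (above the dotted line) and of 6 others (below it). Symbols mark the pool and each replicate, and symbol area grows with the signal of that list (drawn at another scale for the pool). At dnj-13, dnj-9, dnj-19, hsp-1 and hsp-110 the main summits of all 3 lists coincide, whereas those of dnj-29 and hsf-1 are spread and those of hsp-16.41 differ between lists.

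Several annotated 5′ ends follow directly on the letters CAG, the end of a 3′ splice site, as is usual where worm transcripts are trans-spliced to a leader RNA and the true start of transcription lies further upstream. This was so for 5 of the 7 members with a peak (dnj-9, dnj-13, dnj-29, hsp-1 and hsp-110), 17 of all 48 members (35.4%) and 22.1% of all protein-coding genes. For these genes the distance to the 5′ end is a distance to the annotated RNA end and need not be the distance to the start of transcription.

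Heat shock elements were searched as GAANNTTC, which reads the same on both strands, and on both strands as a longer element of 3 repeats, GAANNTTC followed by NN and GAA, which contains the shorter one. In the 300 bases from 250 before to 50 after the 5′ end, the longer element was present at 11 of 48 members (22.9%), against 1.97% of all genes. The 11 were all 7 heat-inducible genes, then hsp-1, hsp-90 and hsp-110 of the 11 constitutive genes, and dnj-12 of the 29 DnaJ genes. The hsp-16 genes among them stand in pairs that face away from each other and share elements. The same element was thus counted from both genes of a pair, for the longer element and for the core, and these genes are not separate cases. The shorter core was present at 19 members (39.6%, against 18.5% of all genes), and at 5 of the 8 genes of the CCT chaperonin (62.5%), which are no members. Genes with the longer element were thus found among members with a peak and without one. Of all 393 genes with it, 5.09% had a thresholded peak, against 2.83% of all genes. A candidate in at least 1 list stood at 46.3% of the 393, which is near the background, as 53.5% of all genes had none.

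At the summits themselves the core GAANNTTC was present within 100 bp at 4 of the 7 member peaks (57.1%), against 9.42% of the 945 peaks. Its centre lay 2 bp from the summit of hsp-1, 20 bp from that of hsp-110, 42 bp from that of dnj-13 and 43 bp from that of dnj-19. At the additional hsp-90 peak it lay 2 bp from the summit. A centre within 25 bp of the summit was found at 2 of the 7 member peaks (28.6%), against 2.12% of all thresholded peaks. These are matches of letters, not tested as sites, and binding at an element and an abundance of elements at these genes cannot be told apart from them.

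The words known from SPR-3 summits were unevenly placed. GCGCCAGC stood 9 bp from the summit of dnj-9 and 7 bp from that of dnj-19, that is at 2 of 7 member peaks (28.6%), against 4.44% of all 945. GACGC was within 100 bp of 1 member summit, that of dnj-19 (14.3%, against 36.7% of all peaks). The word GAGACGCA, which contains GACGC, was at none of the 7 summits and at 9.52% of all peaks.

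GAGACGCA was, however, present in the promoters of all 6 hsp-16 genes, against 3.32% of all promoters, 0 of 11 constitutive Hsp genes and 0 of 29 DnaJ genes. It was also present at 3 of 17 co-chaperone and regulator genes (17.6%) and at 1 of the 4 organelle chaperone genes left out by the name rule. The 6 hsp-16 genes share their ancestry and 4 of them lie in the repeat, so they are not separate cases. They also stand in pairs that face away from each other, and each occurrence of the word was counted from both genes of a pair. The pairs are hsp-16.2 with hsp-16.41, hsp-16.1 with hsp-16.48, and hsp-16.11 with hsp-16.49. Of the 663 promoters with GAGACGCA, 49 (7.39%) had a thresholded peak, against 2.83% of all genes. A peak stood at 31.9% of the promoters with GCGCCAGC and 5.36% of those with GACGC. A candidate in at least 1 list stood at 396 of the 663 (59.7%), while 53.5% of all genes had none. All 3 words were chosen with these same peaks known, so these shares are no independent evidence that SPR-3 binds them. The 200 bases before the 5′ ends of hsp-16.2 (chrV:1804958-1805157, − strand) and hsp-16.1 (chrV:9087783-9087982, − strand) show GAGACGCA and the core of a heat shock element together, both in capitals.
hsp-16.2: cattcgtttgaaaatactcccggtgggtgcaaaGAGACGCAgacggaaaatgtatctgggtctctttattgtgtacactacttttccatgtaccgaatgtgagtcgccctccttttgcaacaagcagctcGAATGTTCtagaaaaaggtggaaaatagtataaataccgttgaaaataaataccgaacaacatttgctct
hsp-16.1: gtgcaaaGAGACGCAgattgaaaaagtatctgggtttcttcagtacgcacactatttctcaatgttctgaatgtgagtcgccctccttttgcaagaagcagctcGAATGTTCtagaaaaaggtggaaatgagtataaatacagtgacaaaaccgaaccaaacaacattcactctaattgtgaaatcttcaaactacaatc

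At hsp-16.2 the word was centred 164 bp upstream, 96 bp from the nearest pooled summit, and a heat shock core further upstream lay 39 bp from that summit. The summit of replicate 2 lay 99 bp from the word, and the nearest of replicate 1 lay 573 bp from it.

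**Figure D5:**
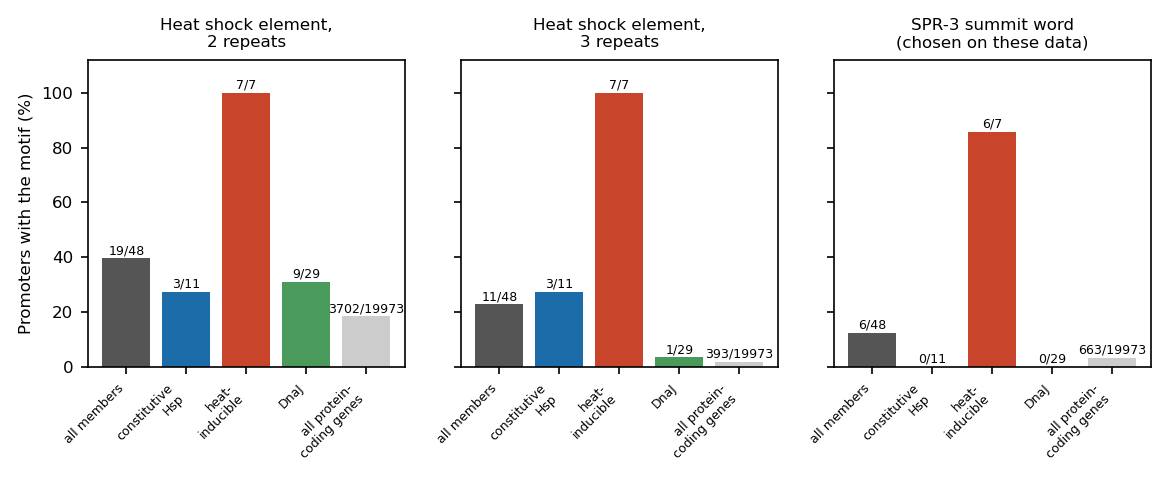
Share of promoters (250 bases before to 50 after the 5′ end) that hold the heat shock core of 2 repeats (left), the longer element of 3 repeats (centre) or GAGACGCA (right), by class, with the counts above the bars. Both heat shock elements are present at 7 of 7 heat-inducible promoters and GAGACGCA at 6 of 7, against 18.5%, 1.97% and 3.32% of all protein-coding genes. The hsp-16 genes stand in pairs that face away from each other, so the same occurrences are counted from both genes of a pair.

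Co-chaperones and regulators of the same pathway, taken from a list of 17 genes, had a thresholded peak at 2 (11.8%, 1.46 to 36.4%), against 2.83% of all genes. Both encode BAG-domain proteins, which release nucleotide from Hsp70. The peak of bag-1 had 97.2 in replicate 1, 140.1 in replicate 2 and 241.6 in the pool, and that of unc-23 had 120.1 in replicate 1, 118.5 in replicate 2 and 240.6 in the pool. These values were close to that of hsp-110. Below the threshold stood skn-1, a stress transcription factor gene (111.1, rank 1835), and sti-1, which links Hsp70 to Hsp90 (109.5, rank 1927). No candidate of any list lay at cdc-37, unc-45, daf-16 or ddl-2. Of the organelle chaperones left out by the name rule, 3 of 4 had a thresholded peak, namely hsp-60 (658.1), hsp-3 (285.5) and hsp-6 (141.5), and of the CCT chaperonin genes cct-8 (696.6) and cct-1 (250.6) did, 2 of 8. The highest member, dnj-13 at 438.2, was thus below hsp-60 and cct-8 in the same pooled list.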

How the data were processed

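SPR-3 ChIP-seq was measured in 2 biological replicates of 1 group of L4 larvae. The authors deposited candidate intervals on ce11 for each replicate and for the pool, and a thresholded list made from them, with 1 control file behind all lists, per the labels and the notes in the deposit. Column 7 is the signal given by the authors' caller and column 9 the deposited −log10 q-value. Neither the caller nor its treatment of repeated sequence or of depth is stated in the sources used here. The files hold no read counts.

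Chromosome lengths fitted WBcel235, and genes came from Ensembl release 115. Summits (start plus column 10) were assigned to promoter windows with Python 3.11.15, numpy 2.4.6 and pandas 2.3.3. The lookup was tested on simulated data. Duplication is the share of 50-base words of a window that occur again in the genome on either strand. Shares carry exact (Clopper-Pearson) 95% intervals from scipy 1.17.1.

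Named in the text are all members with a thresholded peak, all heat-inducible genes, hsp-1, hsp-90, hsp-110 and hsf-1, the 5 members next below the threshold, list genes with a peak, and others to account for every member. The members, gene lists and words were chosen with earlier results of these data known, and GAGACGCA and the duplication check were added after seeing the data. No p-value was computed, since there is 1 group and the genes are not replicates.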

Additional observations from a re-analysis of the deposited data

How the results depend on the processing

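The 9 alternatives set for the thresholded peaks gave between 5 and 8 members with a peak, against 7 as reported, and 0 heat-inducible genes each time, while all genes with a peak numbered 325 to 802 (1.63 to 4.02%), against 566. The wide window, 2000 bp upstream to 500 bp downstream, gave 7 members beside 802 genes, and the narrow one, 500 bp to 100 bp, 7 beside 405. Without replicate 1 or replicate 2, that is with the 945 highest candidates of the other, the count was 6 in each case, without dnj-29 or dnj-28, and 4 DnaJ genes, and all genes numbered 534 and 521. The DnaJ count was 3 with the nearest 5′ end only and 3 in the 472 strongest thresholded peaks, which held peaks of 325 genes of all kinds. A looser set of 1890 pooled candidates, chosen after seeing the data, reached 892 genes of all kinds (4.47%) and 9 members, adding dnj-12 and hsf-1. The narrow window left 20 members with a pooled candidate of any rank (41.7%, against 19.8% of all genes), where 31 were reported. The wide window brought in a pooled candidate of 108.9 at hsp-16.49 and of 59.6 at hsp-16.1 and hsp-16.11, which had none as reported. Also added after seeing the data, hsp-16.20 and hsp-16.21 by RefSeq name had no thresholded peak (0 of 9 heat-inducible genes), and without the repeat the counts were 7 of 44 members and 0 of 3 heat-inducible genes. All 7 peaks matched a candidate in both replicates, also at an overlap of at least 50%, as did 99.7% and, at that overlap, 98.9% of all 945 peaks, so this is no more than the background. No paired analysis was possible because the series has 1 group. Depth is unknown, so a weak site cannot be told from an absent one.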

Other observations

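A small heat shock gene had a thresholded peak across its 3′ end. At hsp-12.3 (gene record chrIV:9444791-9445507, − strand) the peak spanned chrIV:9444631-9445060 and so reached beyond the record. The summit lay inside the record, 661 bp downstream of the 5′ end. Its signal was 98.8 in replicate 1 (rank 451), 70.3 in replicate 2 (rank 1220) and 170.0 in the pool (rank 567). It fell in the promoter window of no protein-coding gene. At hsp-1 the 2 pooled candidates of the window differed in signal, 264.1 and 47.6, and dnj-13 had a second candidate 968 bp upstream (83.7, rank 5151) that both replicates also listed (35.3 and 44.0).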
